A study of Oryza sativa with 12 samples.

Results

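The genes described here are the identifiers beginning with LOC_Os that were listed for Nip but in no file of 93-11, and that were expressed in Nip seedlings. Of 26882 such identifiers listed for Nip, 3483 were unlisted for 93-11. Of these, 396 had a mean of at least 20 FPKM in Nip normal or Nip HS, and the other 3087 stayed below this minimum. The 396 members were thus chosen by their level in the same Nip libraries that are described below, so their levels are a description and carry no test. An unlisted gene is either absent from the annotation used for 93-11 or at 0 in all of its libraries, and these cannot be told apart here. The files of both cultivars together named 33780 identifiers.

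Aerial parts of seedlings aged 3 weeks gave RNA for sequencing, from Nip (Nipponbare, a Japonica cultivar of rice) and 93-11 (an Indica cultivar), both without any transgene or mutation named in the labels. Each cultivar had 3 normal and 3 HS (heat stress) libraries, 12 in all, which the study describes as biological replicates. Seedlings were grown under 800 µmol m-2 s-1 of light for 10 h a day with 14 h of dark, and HS meant 45 °C over 36 h at over 80% humidity and 60 to 80 µmol m-2 s-1. HS against normal therefore combines heat with less light and the humidity of the treatment, and these cannot be told apart. The humidity of normal growth is not given in the sources used here. The labelled tissue was not checked against marker genes, since the tables used here pair no LOC_Os identifier with a gene name, and for the same reason members are given by identifier and without a role. Aerial parts hold several cell types, and a change in the share of a cell type cannot be told apart from a change of RNA per cell.

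Japonica and Indica rice are the main subspecies of Asian cultivated rice, and their genomes differ by genes that are present in some cultivars and missing from others. Such presence and absence is common among families that expand by tandem duplication and among genes near transposable elements. A name may also be missing because the gene model of a cultivar was split, merged or renamed when its genome was annotated. In an LOC_Os identifier, the digits before the g give the chromosome and those after it give the order along the chromosome. Locus numbers mostly run in steps of 10, and a number between these steps belongs to a model that was placed between others.

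FPKM counts the fragments of a gene per length of transcript and per fragment mapped in the library, so levels can be compared between genes within a cultivar. The tables of Nip and 93-11 were normalized separately. FPKM summed over all listed genes was 785851 to 798491 in the Nip normal libraries and 552167 to 561203 in the Nip HS libraries, and no further scaling was applied. Pearson correlations of the members' values between libraries of the same group were 0.945 to 0.986 across the 396 genes, which are not independent replicates. The files hold no counts, so the sequencing depth behind each value is not known from them and precision rests on the 3 libraries per group.

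Unlisted genes were much less common among expressed genes than among genes near 0. A gene at 0 in all 93-11 libraries also counts as unlisted, and how far this enters the shares at low levels was not tested. Of the Nip identifiers whose higher group mean was below 1 FPKM, 26.9% were unlisted for 93-11. This share was 14.1% from 1 to 5 FPKM and 7.12% from 5 to 20 FPKM. Above the minimum it hardly moved with level, at 5.42% from 20 to 50 FPKM, 5.29% from 50 to 200 FPKM and 5.69% from 200 FPKM. In all, 396 of 7337 identifiers at the minimum were unlisted, or 5.40%, and only 11.4% of unlisted identifiers reached the minimum. The median of the higher group mean was 41.5 FPKM for the members and 41.6 FPKM for the 6941 identifiers that were listed for both cultivars and reached the same minimum, called shared genes from here on.

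Most members had modest levels, with 233 below 50 FPKM, 130 from 50 to 200 FPKM and 33 at 200 FPKM or more in the higher group. The members closest above the minimum were LOC_Os03g35849 with a higher mean of 20.07 FPKM, LOC_Os10g03830 with 20.11 and LOC_Os01g53210 with 20.13. The closest below it were LOC_Os02g55550 at 19.98 FPKM, LOC_Os03g31400 at 19.95 and LOC_Os02g37254 at 19.94. LOC_Os01g53210 had 8.03, 14.4 and 13.1 FPKM in the normal libraries and 23.0, 17.6 and 19.8 in the HS libraries, so libraries of the same group lay on both sides of the minimum.

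Together the members held nearly the same share of all FPKM in every Nip library, 3.9 to 3.96%. Within this share the weight of the 8 members with the highest mean was lower in the HS libraries. They held 26.1 to 26.7% of the members' sum in the normal libraries and 17.8 to 18.1% in the HS libraries, and the groups did not overlap. These 8 were chosen by their mean over the same libraries. The FPKM sums were larger in normal, so the choice favours genes that are high there. Among them, LOC_Os05g48630 alone went from 3266 to 616 FPKM.

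**Figure D1:**
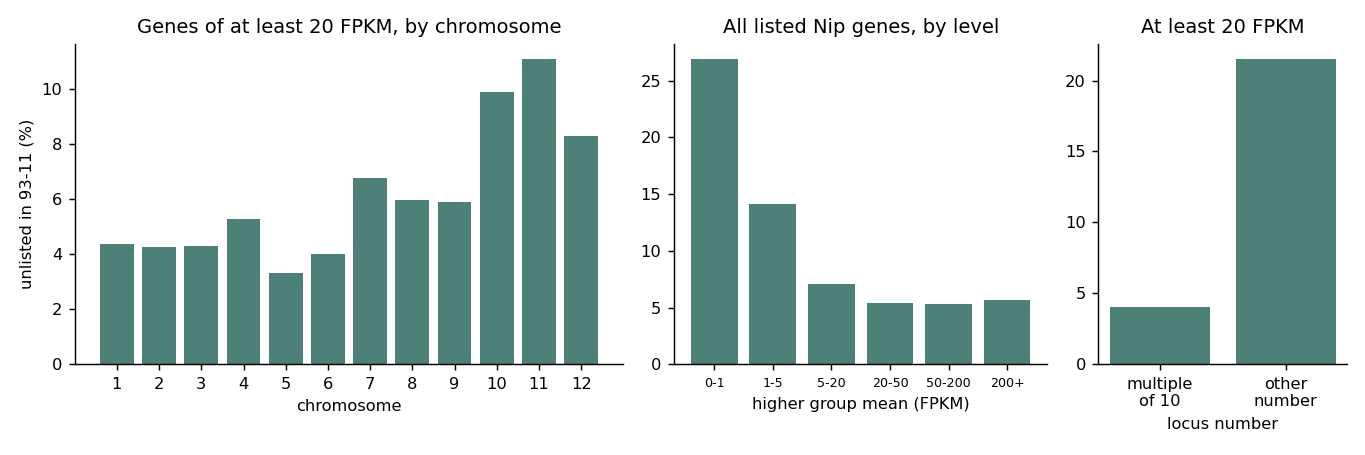
Share of Nip LOC_Os identifiers that no 93-11 file lists, in percent. Shares are by the higher of the 2 group means in FPKM (all listed identifiers) and by chromosome (identifiers at 20 FPKM or more). The share falls from 26.9% below 1 FPKM to 5.42% from 20 to 50 FPKM and then stays level, and among expressed genes it is highest on chromosomes 10 to 12.

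Members were found on all 12 chromosomes but not in even shares. On chromosomes 1 to 9, 299 of 6340 identifiers at the minimum were members, or 4.72%. On chromosomes 10 to 12 the share was 9.73%, 97 of 997. The same chromosomes stood out among identifiers of all levels, with 17.8 to 20.8% unlisted, beside 9.76 to 13.5% on the others. Chromosome 11 had the highest share, with 33 of 297 (11.1%), followed by chromosome 10 with 36 of 363 (9.92%) and chromosome 12 with 28 of 337 (8.31%). The lowest share was on chromosome 5, with 22 of 660 (3.33%). Counts on single chromosomes are small, and no test was made of their differences.

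The numbers of the loci set the members apart further. Of identifiers at the minimum whose locus number is a multiple of 10, 272 of 6759 were members (4.02%), whereas of those with a number between these steps 124 of 578 were members (21.5%). Counted over the members, 124 of 396 had numbers between the steps. Of 4725 identifiers listed for 93-11 and not for Nip, 499 reached 20 FPKM in 93-11 normal or HS, and 305 of these (61.1%) had numbers between the steps. The like share over all 93-11 identifiers at 20 FPKM is not given here. This split by locus number was chosen after values had been seen.

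Upon HS, 40 of the 395 members that passed the filter on low values (at least 1 FPKM in 3 of 6 libraries) were called upregulated and 97 downregulated, while 258 were not called. A call needed a change of 1 or more, in either direction, on the scale of log2(FPKM + 1), with a limma adjusted p below 0.01, and p-values were adjusted over all 20724 identifiers tested in Nip. The upregulated share of the members was 10.1%, beside 9.69% of all identifiers tested and 8.26% of the shared genes. The downregulated share was 24.6%, beside 17.8% of all identifiers and 25.3% of the shared genes. Calls in either direction took 27.5% of all identifiers tested. A member passed its minimum in the higher group, as did the shared genes, so the shared genes are the closer comparison, and both shares of the members lay near theirs.

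The median log2 fold change was −0.14 for the members, with quartiles of −1.0 and 0.46, −0.30 for the shared genes and −0.04 for all identifiers tested. Single members ranged from −7.70 to 6.89. A total of 10 upregulated (2.53%) and 26 downregulated members (6.58%) changed by at least 3 on the log2 scale, beside 1.02% and 3.67% of the shared genes and 0.584% and 1.71% of all identifiers tested. Less than 0.25 separated the groups in 71 members (18%), 20.5% of the shared genes and 23.5% of all identifiers tested. Normal and HS libraries did not overlap in most members. HS was higher in all libraries for 153 and lower for 196, and the groups overlapped for 47. Over all identifiers tested, HS was higher without overlap in 38.3%, lower in 43.6% and either in 81.9%. Of the 6941 shared genes, the closer comparison, HS was higher without overlap in 2251 and lower in 4000, and the groups overlapped in 690.

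The balance of rises and falls depended on how the libraries were put on a common scale. As deposited, 29.2% of the called members were upregulated, beside 35.3% of all identifiers called. With quantile normalization 69 members were upregulated and 82 downregulated (45.7% up, beside 45.8% of all identifiers called). When each library was rescaled to the same FPKM sum, with the 396 members kept, which moved the median of all genes by 0.48 on the log2 scale, the order turned to 90 up and 75 down (54.5% up). On that scale the calls of the shared genes moved in the same way, to 18.8% up and 15.9% down. Of all identifiers called after this rescaling, 66.4% were upregulated.

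**Figure D2:**
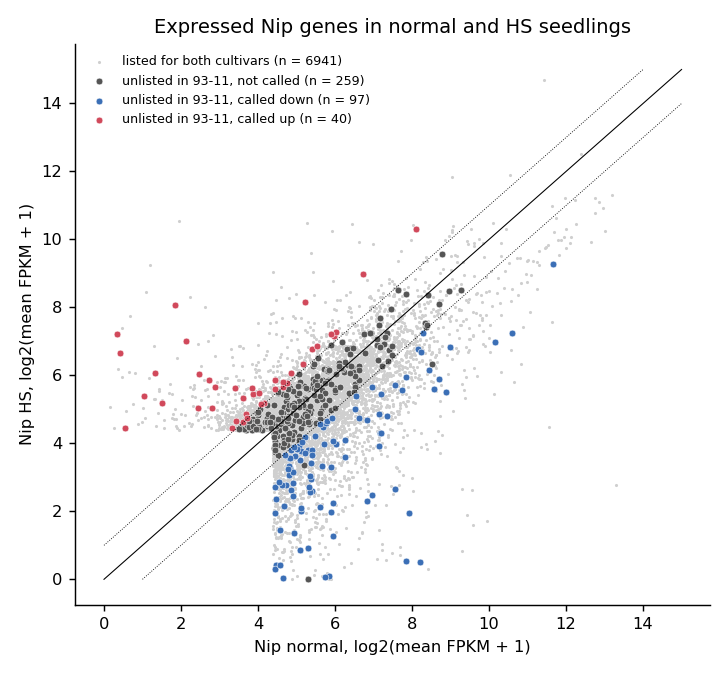
Mean FPKM of the 396 members in 3 Nip normal libraries (x axis) and 3 Nip HS libraries (y axis), on log2(FPKM + 1) scales, coloured by call. The 97 downregulated members lie below the diagonal and the 40 upregulated above it, and LOC_Os05g48630 has the highest level among the members.

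Where a member reached the minimum bears on its calls, since a gene that reached it in a single group had to be higher there. Of the 224 members at the minimum in both groups, 15 were upregulated (6.70%) and 27 downregulated (12.1%), beside 4.61% and 17.1% of 4422 shared genes. Of the 100 members at the minimum in normal libraries only, 99 were tested and 70 were downregulated (70.7%, shared genes 63.3%). Of the 72 at the minimum in HS libraries only, 25 were upregulated (34.7%, shared genes 39.3%). For these last 2 classes values, fold changes and errors are given below, with no p. Where a call is named for them, the choice of members had a part in it.

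The member with the highest level was LOC_Os05g48630, on chromosome 5. It had 3299, 3214 and 3285 FPKM in the normal libraries and 613, 607 and 628 FPKM in the HS libraries. It was downregulated from 3266 ± 45.6 to 616 ± 10.7 FPKM (mean ± SD, n = 3), 5.30-fold lower, with a log2 fold change of −2.41 (SE 0.027, limma adjusted p = 6.819e-11). Every HS library was far below every normal library, yet the gene was still well above most members after HS.

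In the normal libraries the next places were taken by LOC_Os11g02389 and LOC_Os11g02400, neighbours on chromosome 11. LOC_Os11g02389 had 1565, 1534 and 1563 FPKM in the normal libraries and 143, 162 and 151 FPKM in the HS libraries, with a log2 fold change of −3.35 (SE 0.043, limma adjusted p = 1.439e-10). LOC_Os11g02400 had 1104, 1130 and 1160 FPKM in the normal libraries and 125, 123 and 132 FPKM in the HS libraries, with a log2 fold change of −3.15 (SE 0.035, limma adjusted p = 6.819e-11). The pair was 10.2-fold and 8.93-fold lower upon HS, respectively, and the order of their levels was the same in all 6 libraries.

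LOC_Os04g50970 moved the other way and was the leading member of the HS libraries. Its levels were 269.8, 279 and 274 FPKM in the normal libraries and 1238, 1256 and 1331 FPKM in the HS libraries. The rise was 4.65-fold, with a log2 fold change of 2.21 (SE 0.034, limma adjusted p = 2.981e-10).

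The other 4 members of highest mean were not called, since each changed by less than 1 on the log2 scale, although their groups did not overlap. LOC_Os09g30418 was higher in the HS libraries, with 438 ± 6.32 FPKM in normal and 764 ± 17.9 FPKM in HS (log2 fold change 0.80, SE 0.028). It passed the fold limit under quantile normalization (1.6) and after rescaling to equal sums (1.31). LOC_Os02g39790 went from 614 ± 2.92 to 361 ± 0.648 FPKM (−0.76, SE 0.023) and LOC_Os03g59740 from 413 ± 4.85 to 272 ± 2.17 FPKM (−0.60, SE 0.025). LOC_Os05g02070 had 487, 510.1 and 502 FPKM in the normal libraries and 414, 322 and 345 FPKM in the HS libraries (−0.48, SE 0.081). These last 3 differences turned positive under quantile normalization, to 0.02, 0.05 and 0.22, and that of LOC_Os05g02070 also after rescaling to equal sums, to 0.03.

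The largest rises were in genes that were nearly silent in normal seedlings. LOC_Os12g36430 had 0.140, 0.507 and 0.121 FPKM in the normal libraries and 147, 149 and 144 FPKM in the HS libraries, a log2 fold change of 6.89 (SE 0.110). LOC_Os07g15959 had 2.39, 1.26 and 4.05 FPKM in the normal libraries and 263, 264 and 269 FPKM in the HS libraries, a log2 fold change of 6.30 (SE 0.239). LOC_Os02g37480 had 0.782, 0 and 0.194 FPKM in the normal libraries and 102, 102 and 93.9 FPKM in the HS libraries, a log2 fold change of 6.28 (SE 0.184). All HS libraries of these genes were close to each other, while their normal libraries differed severalfold at levels too low to rank.

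Below these, LOC_Os04g24804 had 3.39 ± 2.43 FPKM in normal and 129 ± 4.99 FPKM in HS (log2 fold change 5.02), with normal libraries at 1.66, 6.17 and 2.35 FPKM. LOC_Os05g06399 went from 1.49 ± 0.517 to 65.7 ± 3.69 FPKM (4.76), and LOC_Os09g03190 from 1.07 ± 0.557 to 41.4 ± 0.634 FPKM (4.39). LOC_Os11g16924 was at 0.460 ± 0.141 FPKM in normal and 20.8 ± 0.799 FPKM in HS (3.91), just above the minimum. LOC_Os01g29804 was at 1.84 ± 0.402 FPKM in normal and 35.3 ± 0.984 FPKM in HS (3.68).

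The largest falls ended near 0. LOC_Os12g36220 had 291, 299 and 286 FPKM in the normal libraries and 0.478, 0.224 and 0.540 FPKM in the HS libraries, a log2 fold change of −7.70 (SE 0.084). LOC_Os03g58300 had 229, 229 and 226 FPKM in the normal libraries and 0.122, 0.598 and 0.595 FPKM in the HS libraries, a log2 fold change of −7.33 (SE 0.128). LOC_Os08g29660 had 239, 241 and 242 FPKM in the normal libraries and 2.89, 2.57 and 3.03 FPKM in the HS libraries, a log2 fold change of −5.98 (SE 0.051). LOC_Os12g36220 was thus among the more highly expressed members of normal seedlings and among the lowest of HS seedlings, in every library.

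LOC_Os08g26710 went from 55.9 ± 1.65 to 0.0759 ± 0.0529 FPKM (log2 fold change −5.73) and LOC_Os12g37320 from 52.0 ± 1.23 to 0.0567 ± 0.0477 FPKM (−5.65). LOC_Os12g02469 went from 24.0 ± 0.743 FPKM to 0, 0.0210 and 0.0883 FPKM in the HS libraries (−4.59). LOC_Os07g48020 kept a measurable level, from 188 ± 5.68 to 5.32 ± 0.468 FPKM (−4.91). The least even of these was LOC_Os07g25050, with 52.2, 55.0 and 73.7 FPKM in the normal libraries and 2.81, 1.38 and 0 FPKM in the HS libraries (−4.86, SE 0.417). For the 8 falls as for the 8 rises, the pseudocount of 1 understates the fold of values near 0, and it also sets their order. With a pseudocount of 0.1, LOC_Os12g37320 (−8.42), LOC_Os08g26710 (−8.36) and LOC_Os12g02469 (−7.52) fell further than LOC_Os08g29660 (−6.36).

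**Figure D3:**
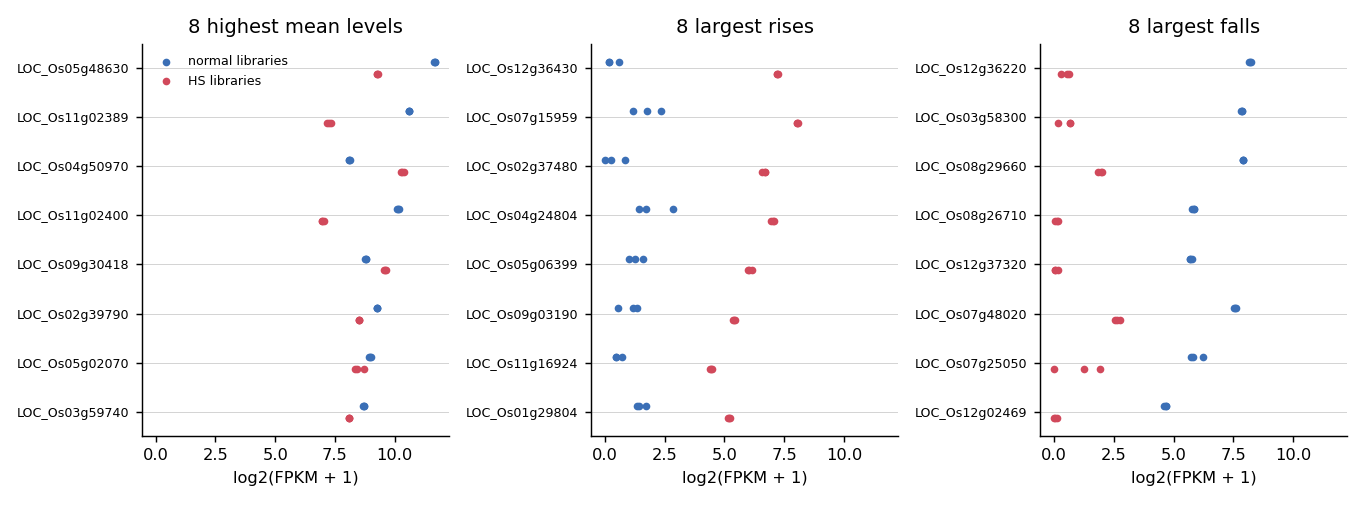
FPKM of the members with the highest mean, the largest rises and the largest falls in each of the 3 Nip normal and 3 Nip HS libraries, on a log2(FPKM + 1) axis, 1 point per library. The groups do not overlap in any gene drawn, and the rises and falls span up to 6.89 and −7.70 on this scale.

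At the other end, 4 members at the minimum in both groups had the smallest changes. LOC_Os06g09688 had 137, 141 and 126 FPKM in the normal libraries and 132, 132 and 139.6 FPKM in the HS libraries (limma adjusted p = 0.979). LOC_Os07g13234 had 71.4 ± 1.5 FPKM in normal and 72.0 ± 1.72 FPKM in HS, and LOC_Os05g06630 had 25.5 ± 0.627 and 25.7 ± 1.51 FPKM, respectively. These genes were level upon HS within a few percent, on the deposited scale.

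LOC_Os01g17065 had a mean difference as small, with a log2 fold change of 0.01, but its values were scattered. It had 61.6, 45.1 and 132 FPKM in the normal libraries and 112, 42.4 and 78.6 FPKM in the HS libraries (SE 0.431). The difference between the groups was thus far smaller than the spread within each of them.

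This gene belongs to a small class of members with uneven replicates, which was looked for after the values had been seen. In the group where they were higher, 8 of 396 members (2.02%) had a highest library more than 2-fold above the lowest, beside 17 of 6941 shared genes (0.245%). The typical spread was somewhat larger than that of the shared genes. In the normal libraries the median SD on the log2 scale was 0.066 for the members and 0.055 for the shared genes. In the HS libraries it was 0.066 and 0.052, respectively. The most uneven was LOC_Os11g25030, which had 114.8 FPKM in the third normal library and was listed at 0 in the other 5 Nip libraries. It entered by this library alone, failed the filter and was not tested.

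LOC_Os06g37070 had 148, 7.99 and 182 FPKM in the normal libraries and 3.66, 3.83 and 4.34 FPKM in the HS libraries, so the second normal library was closer to HS than to its own group. Its log2 fold change was −3.67 (SE 0.993), and −5.07 (SE 0.102) without that library, while the call was lost in the other 5 fits that left out a library. LOC_Os07g31870 had 220.2, 508 and 371 FPKM in the normal libraries and 0.638, 81.5 and 155 FPKM in the HS libraries, and was not called. Of the 8, LOC_Os06g37070 and LOC_Os04g11195 were called downregulated and the others were not. Both reached the minimum in normal only, so the choice of members had a part in these calls. In all, 8 members had a single library at 20 FPKM or more, and 6 members were listed at 0 in some Nip library.

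Some unlisted identifiers stood side by side, while most members stood alone between shared genes. Taken in order of locus number over all identifiers listed for Nip, the 3483 unlisted ones formed 2605 runs without a shared gene between them. Of the members, 241 were alone, 155 were in runs of at least 2 and 66 in runs of at least 3 identifiers. The longest run, of 12 identifiers from LOC_Os04g14140 to LOC_Os04g14480, held no member.

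The run of 8 identifiers from LOC_Os11g34730 to LOC_Os11g34820 held 3 members, which were all slightly higher in every HS library and all not called. LOC_Os11g34790 went from 55.2 ± 3.61 to 68.9 ± 0.814 FPKM, LOC_Os11g34810 from 19.6 ± 0.915 to 26.3 ± 1.95 FPKM and LOC_Os11g34820 from 14.5 ± 0.776 to 20.4 ± 1.39 FPKM. The run of 8 from LOC_Os12g33289 to LOC_Os12g33928 held 2 members that differed. LOC_Os12g33300 had 23.0, 24.0 and 21.9 FPKM in the normal libraries and 0.456, 0.334 and 0.226 FPKM in the HS libraries, a log2 fold change of −4.17 (SE 0.090). LOC_Os12g33610 had 64.0 ± 2.51 FPKM in normal and 65.4 ± 0.550 FPKM in HS, and its groups overlapped (limma adjusted p = 0.4736).

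Of the 22 runs that held 2 or more members, 3 had all their members called in the same direction and 2 had members called in opposite directions. The first kind included LOC_Os11g02389 and LOC_Os11g02400 above, and LOC_Os04g59190 and LOC_Os04g59200, named here after their values were seen. LOC_Os04g59190 had 99.9, 104 and 113 FPKM in the normal libraries and 495, 514 and 511 FPKM in the HS libraries, and LOC_Os04g59200 had 33.7, 37.9 and 36.9 FPKM and 284, 289 and 277 FPKM. Their log2 fold changes were 2.25 (SE 0.046) and 2.94 (SE 0.046). In the remaining pair, LOC_Os07g47990 and LOC_Os07g48020, both genes were downregulated.

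The opposite calls were in LOC_Os01g06560 and LOC_Os01g06580, and in the run that begins with LOC_Os12g11660, again named after their values were seen. LOC_Os01g06560 had 4.53, 4.28 and 4.65 FPKM in the normal libraries and 65.7, 65.4 and 61.4 FPKM in the HS libraries, while LOC_Os01g06580 had 28.8, 25.5 and 28.7 FPKM and 8.72, 9.16 and 8.23 FPKM. LOC_Os09g30416, called downregulated, had 311, 313 and 311 FPKM in the normal libraries and 154, 149.7 and 153 FPKM in the HS libraries, next to LOC_Os09g30418, which was higher in every HS library but not called. LOC_Os01g06560 reached the minimum in HS only and LOC_Os01g06580 in normal only, and the members of the LOC_Os12g11660 run likewise reached it in a single group, so the choice of members had a part in these directions. The same holds for LOC_Os07g47990 and LOC_Os07g48020, whereas both members of the other 2 pairs called in the same direction reached the minimum in both groups. How reads that match several neighbours entered the FPKM values is not given in the sources used here, so the values of neighbours of similar sequence are uncertain.

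Since a name can be missing because a model was renamed, the places of the members were searched for identifiers that only 93-11 lists. For each member, the interval between the nearest shared genes on both sides was taken, and this search was added after values had been seen. For 205 of 396 members (51.8%) the interval held at least 1 identifier listed for 93-11 alone. For 86 members (21.7%) at least 1 of these reached 20 FPKM in 93-11. For the other 191 members there was none. Members with no shared gene between them have the same interval, so some intervals were counted more than once. Of unlisted identifiers below the minimum, 44.1% had an identifier of 93-11 alone in their interval and 4.99% one at 20 FPKM, and of the shared genes 26.3% and 5.27% had one in either adjoining interval. Of the 86 members with an expressed neighbour of this kind, 8 were upregulated (9.30%) and 22 downregulated (25.6%), and of the 191 with none, 16 were upregulated (8.38%) and 49 downregulated (25.7%). Whether such a pair of identifiers stands for the same gene was not tested, since no sequence was compared.

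In 70 intervals exactly 1 member faced exactly 1 identifier of 93-11 at 20 FPKM, and in 50 of them the locus numbers were at most 10 apart. The normal levels of the pair were within 2-fold in 47 of 70 (67.1%), beside 85.6% of 5488 shared genes at the minimum in both cultivars. Across the 70 pairs the Spearman correlation of the normal levels was 0.643 and the Pearson correlation on the log2 scale 0.714, beside 0.822 and 0.858 over the shared genes. These are descriptions across genes of the same libraries, and both sets passed a minimum that narrows the range of levels. The median of 93-11 minus Nip was −0.44 on the log2 scale for the pairs and −0.36 for the shared genes, with the tables normalized separately.

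**Figure D4:**
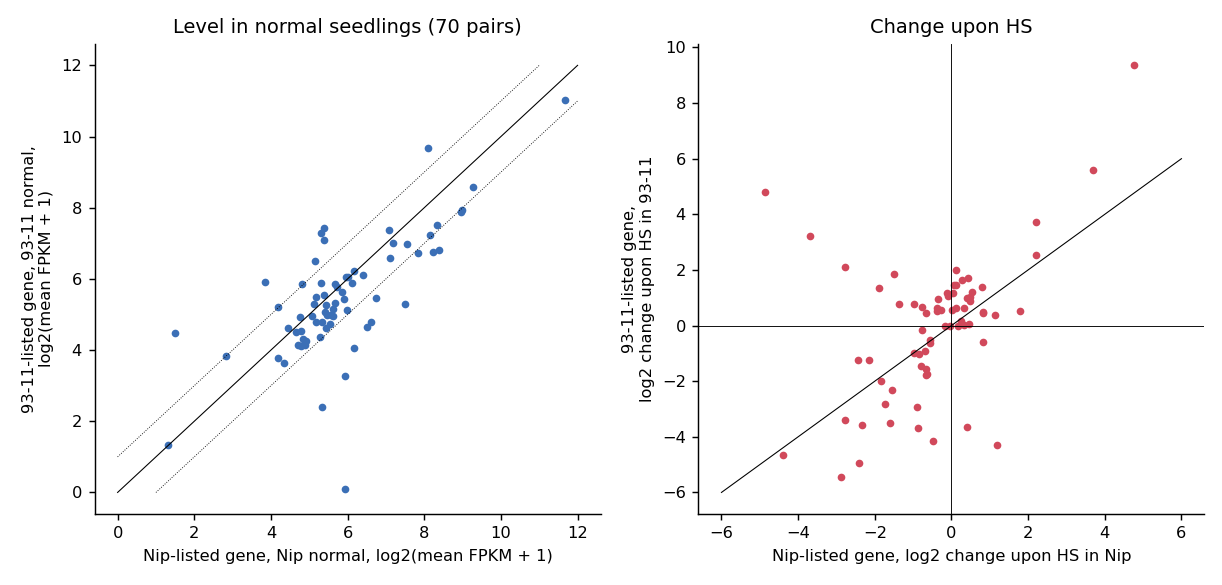
The 70 pairs of a member and the single 93-11 identifier at 20 FPKM or more in the same interval: mean FPKM in normal libraries (left, log2(FPKM + 1), Nip on x and 93-11 on y) and log2 change of the means upon HS in each cultivar (right, Nip on x, 93-11 on y). Normal levels are within 2-fold in 47 pairs, and 6 pairs moved in opposite directions by at least 2-fold in both cultivars.

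By means alone, 11 of the 70 pairs were at least 2-fold lower upon HS in both cultivars, 4 at least 2-fold higher in both and 6 opposite (15.7%, 5.71% and 8.57%). Of the 5488 shared genes, 17.3% were lower in both, 5.67% higher in both and 2.0% opposite. The difference between these shares was not tested, and a member and its neighbour were each chosen by their own level. LOC_Os05g48630 faced LOC_Os05g48634, which had 2013, 2022 and 2174 FPKM in the 93-11 normal libraries and 64.0, 73.9 and 61.9 FPKM in the 93-11 HS libraries. Both were lower in every HS library. LOC_Os04g50970 faced LOC_Os04g50980, which had 826 ± 48.0 FPKM in normal and 4826 ± 167 FPKM in HS libraries of 93-11, so both were higher upon HS. LOC_Os05g06399 faced LOC_Os05g06404, with 1.51 ± 1.31 and 1447 ± 143 FPKM in 93-11, and LOC_Os01g29804 faced LOC_Os01g29791, with 21.1 ± 2.58 and 1051 ± 39.1 FPKM.

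Among the other members of highest mean, LOC_Os02g39790 faced LOC_Os02g39795, with 384 ± 6.70 FPKM in normal and 610.0 ± 9.08 FPKM in HS libraries of 93-11, where the member had been lower upon HS. LOC_Os05g02070 faced LOC_Os05g02094, which had 236, 225 and 240.2 FPKM in normal and 12.5, 12.6 and 11.7 FPKM in HS libraries of 93-11, a far deeper drop than the member's own. LOC_Os11g02389 and LOC_Os11g02400 shared an interval with LOC_Os11g02370, which had 145 ± 8.81 and 10.1 ± 0.644 FPKM in 93-11. No identifier of 93-11 alone was found in the intervals of LOC_Os12g36220, LOC_Os08g29660, LOC_Os07g15959 and LOC_Os02g37480, which were among the largest falls and rises. Other members of this kind had such identifiers. Those of LOC_Os12g36430, the largest rise (1), and of LOC_Os03g58300 and LOC_Os04g24804 (2 each) were all below 20 FPKM in 93-11. LOC_Os07g25050 faced LOC_Os07g24896, with 0.0641 ± 0.106 FPKM in normal and 28.6 ± 3.00 FPKM in HS libraries of 93-11. The member had been lower upon HS in Nip, so this is an opposite pair. Their locus numbers were 154 apart. The member reached the minimum in normal only and LOC_Os07g24896 in HS only, so the choice had a part in these directions.

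The opposite pairs are given with examples chosen after their values were seen. LOC_Os01g71810 had 58.4, 63.1 and 59.1 FPKM in Nip normal and 3.25, 3.67 and 4.29 FPKM in Nip HS, while LOC_Os01g71820 had 8.75, 9.30 and 8.03 FPKM in 93-11 normal and 79.8, 102 and 84.8 FPKM in 93-11 HS. LOC_Os04g52260 had 59.3, 62.4 and 62.5 FPKM in Nip normal and 147, 141 and 133 FPKM in Nip HS, while LOC_Os04g52250 had 62.0, 56.0 and 76.9 FPKM in 93-11 normal and 3.88, 1.25 and 2.32 FPKM in 93-11 HS. LOC_Os08g10500 had 195, 288 and 202 FPKM in Nip normal and 48.1, 72.1 and 63.1 FPKM in Nip HS, while LOC_Os08g10504 had 99.6, 108 and 108 FPKM in 93-11 normal and 279, 266 and 257 FPKM in 93-11 HS. In each of these examples the normal and HS libraries of a cultivar did not overlap. LOC_Os01g71810 and LOC_Os04g52250 reached the minimum in normal only and LOC_Os01g71820 in HS only, so the choice had a part in their directions. The difference between the cultivars was not tested, because the values belong to different identifiers in separately normalized tables.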

How the data were processed

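Per the labels and the study's methods, poly(A) RNA was sequenced from 3 normal and 3 HS libraries of each cultivar. The authors deposited 1 FPKM value per gene and library. The methods name STAR, featureCounts and DESeq2, the submitters' processing notes HISAT2 2.0.4, StringTie 1.3.4d and DESeq2. Which tool gave the FPKM, the build and the annotation are not given in the sources used here. Whole reads could not be recovered: 117 to 139 values per Nip library lay between 0 and 0.0001 FPKM.

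Nip libraries were compared with limma 3.58.1 (R 4.3.3, trended prior) on log2(FPKM + 1), computed here from the deposited FPKM, over identifiers with at least 1 FPKM in at least 3 of 6 libraries, with Benjamini-Hochberg adjustment. The fit was tested on simulated data. Summaries used Python 3.11.15. The members, lists and naming rule were chosen with earlier results of these data known. Named by rule are the 8 members of highest mean, the 8 largest called rises and falls without overlap, the 4 smallest changes at the minimum in both groups, members of the 3 longest runs, and the 3 genes nearest the minimum on each side. Alternatives were another pseudocount, no filter, 3 scalings, a replicate block, each library left out, a test against a minimum change, a looser adjusted p and other minimum levels. The authors' Hi-C and ATAC-seq data were not used here.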

Additional observations from a re-analysis of the deposited data

How the results depend on the processing

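The number of upregulated members rose from 40 to 69 with quantile normalization and to 90 after rescaling every library to the same sum. It fell to 25 when tested against a log2 fold change of 1. In this order the counts were 10.1%, 17.4%, 22.7% and 6.31% of the members tested. The shared genes had 8.26%, 13.1%, 18.8% and 5.59%, and all identifiers tested 9.69%, 12.5%, 23.5% and 4.72%. Downregulated members stayed within 1.5 times 97 under every scaling, at 75 to 92. Over all identifiers tested, the downregulated share was 17.8% as deposited and 11.9 to 16.7% under these scalings. The minimum level moved the set itself. At 10 FPKM it held 666 members (72 up, 126 down) and at 50 FPKM 163 (20 up, 47 down). The like shares of shared genes at 10 and 50 FPKM are not given here. At 20 FPKM in both groups it held 224 members (15 up, 27 down). These were 6.70% and 12.1% of them, beside 4.61% and 17.1% of the shared genes. Applied after rescaling to equal sums, the same minimum of 20 gave 576 members; the counts under rescaling above are for the 396. A pseudocount of 0.1 (43 up, 98 down), no filter (40, 96) and an adjusted p under 0.05 (41, 99) changed little. Leaving out each library gave 38 to 43 up, 94 to 97 down and 394 to 399 members. With a replicate block the counts were 40 and 97. Deviations of libraries with the same number correlated by 0.034 to 0.042, each highest with its own number but under 0.1, so the numbers were not taken as pairs.

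LOC_Os02g39790, LOC_Os03g59740 and LOC_Os05g02070 turned to 0.021, 0.046 and 0.22 on the log2 scale with quantile normalization, and LOC_Os05g02070 to 0.027 after rescaling. Without single libraries the members of smallest change took either sign: LOC_Os01g17065 from −0.32 to 0.44, LOC_Os05g06630 from −0.036 to 0.041, LOC_Os06g09688 from −0.046 to 0.037 and LOC_Os07g13234 from −0.0065 to 0.027. After rescaling, LOC_Os01g53210 (1.25), LOC_Os03g35849 (1.04) and LOC_Os09g30418 (1.31) passed the fold limit. The cause of these shifts was not tested. No depth was available, so values near 0 cannot be ranked.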

Other observations

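LOC_OS09G30438, spelled in capitals and therefore not counted among the LOC_Os identifiers, was not listed for 93-11 either. It had 438, 447 and 479 FPKM in the Nip normal libraries and 215, 227 and 230.2 FPKM in the Nip HS libraries, with a log2 fold change of −1.02 (SE 0.042, limma adjusted p = 8.867e-08). Its number places it near LOC_Os09g30416 and LOC_Os09g30418.

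Identifiers of other kinds also reached 20 FPKM in Nip. Of 1529 named Rice_newGene, 188 did, 146 of them under a name that no 93-11 file lists. Of the 188, 43 were upregulated (22.9%) and 24 downregulated (12.8%), beside 9.69% and 17.8% of all identifiers tested. The shared genes, which passed the same minimum and are the closer comparison, had 8.26% and 25.3%. How the Rice_newGene names were assigned is not given in the sources used here.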
